A study of Mus musculus with 14 samples.

Results

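The genes described here are Glo1, its chromosome 17 neighbours Dnah8, Btbd9 and Glp1r, and Hagh, the gene of the second glyoxalase, which lies elsewhere on the same chromosome. They were chosen by symbol in the GRCm38 gene annotation, and all 5 had a row among the 53465 gene identifiers of the count tables. RNA of the anterior cingulate cortex, part of the medial frontal cortex, was sequenced in bulk from 2 inbred strains, AKR/J (AKR) and C57BL/6NJ (B6N). Of each strain, 4 libraries are labelled naive and 3 libraries are labelled OFL, for observational fear conditioning, in which an animal learns by watching shocks given to a partner. The labels give no age, no transgene and no other treatment. They are silent on whether libraries of 1 group stem from different animals, and the p-values below then reflect only the scatter among libraries, possibly a technical one.

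Methylglyoxal is a reactive by-product of glycolysis that damages proteins and DNA. Glyoxalase 1, the product of Glo1, converts its adduct with glutathione into S-D-lactoylglutathione, and glyoxalase 2, the product of Hagh, splits that product into D-lactate and glutathione. In the mouse brain Glo1 is known from work on anxiety-like behaviour, and in several inbred strains a chromosome 17 segment that holds Glo1 has been described as duplicated; copy number was not analysed here. Dnah8 encodes a heavy chain of axonemal dynein, the motor of motile cilia and sperm tails. Btbd9 encodes a BTB-domain protein whose human counterpart lies at a restless legs syndrome locus, and Glp1r encodes the receptor of glucagon-like peptide 1.

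Levels are given in CPM, that is counts scaled to the library's total after TMM normalisation over the 14 libraries. Differences are log2 ratios with a standard error (SE) from edgeR's quasi-likelihood fit, and genes with an adjusted p (Benjamini-Hochberg over all genes tested) under 0.05 were called. Total counts per library ran from 13487311 to 25780227, with lower totals in all 6 OFL libraries than in all 8 naive libraries. Transcripts of cortical glutamatergic neurons were abundant in every group, with a mean for Camk2a of 1243 to 3108 CPM, while 4 hypothalamic peptide genes summed to at most 0.816 CPM. Summed blood transcripts were lower in AKR in both sets, at 18.6 to 32.5 CPM against 34.7 to 42.7 CPM in B6N naive libraries and 34.3 to 45.1 CPM against 60.9 to 74.5 CPM in OFL libraries. After OFL, summed markers of inhibitory neurons were higher in AKR (554 to 592 CPM against 499 to 521 CPM, 4 of 5 called higher), as were those of microglia (149 to 155 CPM against 138 to 139 CPM, 1 of 3 called higher). Those of astrocytes were lower (193 to 212 CPM against 215 to 239.9 CPM, 1 of 3 called lower). The means of Csf1r, of microglia (73.1 against 76.7 CPM), and of Gfap, of astrocytes (60.2 against 55.8 CPM), went the other way from their sums. The part of these marker differences in the strain differences below was not tested. In bulk tissue, fewer cells of a type and less RNA per cell cannot be told apart.

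In GRCm38 the annotated Glo1 gene (ENSMUSG00000024026) spans chr17:30584936-30626871 on the minus strand. Dnah8 (ENSMUSG00000033826) runs the other way from it, at chr17:30624354-30877365 on the plus strand, and the annotated 5′ ends of the pair overlap. Btbd9 (ENSMUSG00000062202, chr17:30215524-30576488, minus strand) lies on one side of them. On the other side is Glp1r (ENSMUSG00000024027, chr17:30901817-30940791, plus strand). The gene start of Hagh (ENSMUSG00000024158, chr17:24840143-24864450, plus strand) is 5787 kb from that of Glo1. All 5 are protein-coding. Exons of the opposite strand cover 5.22% of the exonic bases of Glo1, 2.42% of those of Dnah8 and 1.04% of those of Btbd9, and whether the counting used strand is not given in the sources used here.

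The RefSeq promoter table for GRCm38.p6 matched 4 of the 5 genes, all but Btbd9. The 250 bases before the RefSeq start are shown for Glo1, for its neighbours Dnah8 and Glp1r, whose AKR and B6N libraries did not overlap in either set, and for Hagh, which was not called in either; for Hagh, the first of its 2 listed starts is shown. Capitals mark CCAAT boxes (CCAAT, read as ATTGG on the other strand) and GC boxes (GGGCGG, read as CCGCCC), each sequence being written 5′ to 3′ on the gene's strand. The RefSeq starts of Glo1 and Hagh lie inside the gene spans given above, and by RefSeq starts the 5′ ends of Glo1 and Dnah8 do not overlap.
Glo1 (chr17:30612660-30612909, minus strand): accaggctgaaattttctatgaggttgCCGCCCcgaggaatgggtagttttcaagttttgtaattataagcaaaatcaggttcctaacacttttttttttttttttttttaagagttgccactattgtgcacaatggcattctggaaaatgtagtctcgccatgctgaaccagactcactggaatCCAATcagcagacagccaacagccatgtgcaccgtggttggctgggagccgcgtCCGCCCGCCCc
Dnah8 (chr17:30626686-30626935, plus strand): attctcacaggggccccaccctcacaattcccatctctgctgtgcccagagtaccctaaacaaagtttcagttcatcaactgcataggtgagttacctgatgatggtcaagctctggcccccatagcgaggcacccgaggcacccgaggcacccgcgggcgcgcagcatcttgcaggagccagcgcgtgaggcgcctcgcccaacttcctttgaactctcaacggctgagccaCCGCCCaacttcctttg
Glp1r (chr17:30901617-30901866, plus strand): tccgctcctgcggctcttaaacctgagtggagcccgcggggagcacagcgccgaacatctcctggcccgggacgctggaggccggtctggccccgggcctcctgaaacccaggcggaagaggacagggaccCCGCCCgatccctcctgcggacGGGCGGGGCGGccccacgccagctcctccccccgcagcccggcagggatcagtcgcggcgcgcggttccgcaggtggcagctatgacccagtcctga
Hagh (chr17:24850240-24850489, plus strand): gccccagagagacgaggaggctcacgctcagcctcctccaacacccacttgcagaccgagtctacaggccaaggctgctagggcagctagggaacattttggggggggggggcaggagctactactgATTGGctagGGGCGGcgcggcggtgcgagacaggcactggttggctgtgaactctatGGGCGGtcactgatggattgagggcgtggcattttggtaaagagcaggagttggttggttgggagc

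The Glo1 window held 1 CCAAT box, at 65 to 61 bases before the start, and 3 GC boxes, of which a pair overlapped. Dnah8 had 1 GC box and no CCAAT box, Glp1r had 3 GC boxes, 2 of them sharing a base, and Hagh had 1 CCAAT box and 2 GC boxes. Of 32851 RefSeq promoters of this length, 33.8% held CCAAT on either strand and 32.7% held GGGCGG, so both are common. Neither the core of the antioxidant response element (TGACNNNGC, in 10.2% of promoters) nor the hypoxia response core (ACGTG, in 16.6%) was found in the windows of these genes. The GC content was 46.4% for Glo1, 59.2% for Dnah8, 73.2% for Glp1r and 61.2% for Hagh. These are letters of the reference strain, and the AKR sequence was not analysed here.

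Glo1 was higher in AKR than in B6N by about the same ratio in both library sets. In naive AKR libraries 1 to 4 its level was 147, 144, 139.9 and 147 CPM, and in the naive B6N libraries it was 77.9, 79.8, 73.2 and 74.3 CPM. After OFL the AKR libraries had 136, 141 and 131 CPM and the B6N libraries 67.8, 73.9 and 72.5 CPM. Every AKR library was above every B6N library in each set. The fitted log2 difference was 0.92 in naive libraries (SE 0.04, 95% interval 0.84 to 0.998, edgeR adjusted p = 2.3e-12), a 1.89-fold higher level. In OFL libraries it was 0.92 (SE 0.05, 95% interval 0.81 to 1.03, edgeR adjusted p = 1.5e-10). Over all genes tested, 37.8% were called between strains in naive libraries (18.3% higher and 19.5% lower in AKR) and 16.4% in OFL libraries (7.5% higher and 8.86% lower). Libraries of the strains did not overlap, with AKR above, for 16.8% of the genes tested in naive and 16.3% in OFL libraries. By the size of the difference Glo1 ranked 939 of 17645 genes in naive libraries and 738 of 17994 in OFL libraries, while by p it ranked 64 and 75. Within groups the standard deviation of Glo1 was 3.08 to 4.98 CPM, around group means of 71.4 to 144 CPM.

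**Figure D1:**
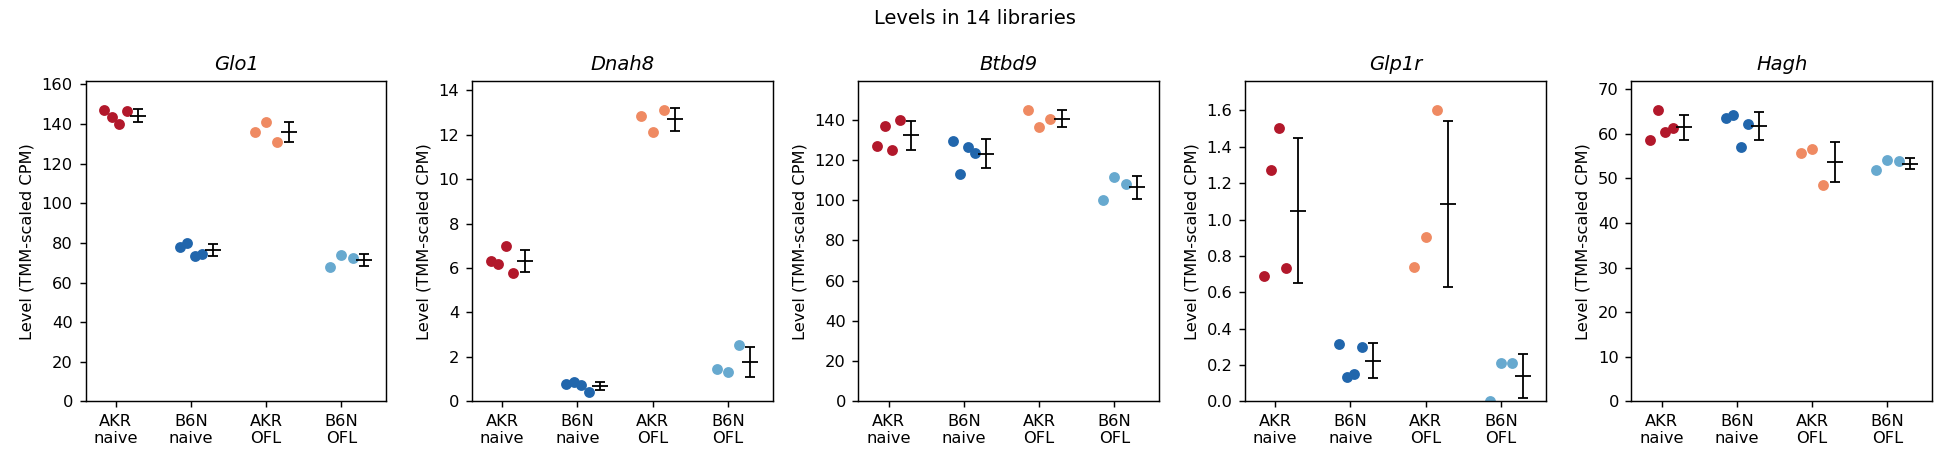
Level of each gene (TMM-scaled CPM, vertical axes starting at 0 and differing between panels) in the 14 libraries. Points are libraries, the dash and bar beside them are the mean and standard deviation of the group. Glo1, Dnah8 and Glp1r are higher in every AKR library than in every B6N library of the same set, Btbd9 separates only after OFL, and Hagh overlaps between strains in both sets.

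Ordered by mean level, Glo1 was highest in naive AKR (144 ± 3.28 CPM, SD, n = 4), followed by AKR after OFL (136 ± 4.98, n = 3), naive B6N (76.3 ± 3.08, n = 4) and B6N after OFL (71.4 ± 3.22, n = 3). The libraries of the first pair in that order overlapped, and so did those of the last pair. The OFL minus naive log2 difference was -0.09 in AKR (SE 0.04, edgeR adjusted p = 0.065) and -0.10 in B6N (SE 0.05, edgeR adjusted p = 0.057), and neither passed the test. In each strain this change passed in 6 of 22 alternative fits. The interaction, the change in AKR minus the change in B6N, was 0.01 (95% interval -0.12 to 0.14, edgeR adjusted p = 0.98). As a ratio, that interval runs from 0.921 to 1.101.

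Glo1 has a processed copy elsewhere in the genome, and the reads assigned to it differed far more between strains than those of Glo1 itself. The copy, Gm13443 (ENSMUSG00000075391), is a processed pseudogene at chr2:35340409-35340963. Its 555 bases aligned to bases 109 to 663 of a Glo1 transcript of 895 bases with 3 mismatches and no gap (99.5% identity). Gm13443 had 191, 209, 190 and 193 counts in the naive AKR libraries and 9, 5, 3 and 3 counts in the naive B6N libraries. After OFL it had 39, 36 and 45 counts in AKR and 4, 2 and 2 in B6N. All AKR libraries were above all B6N libraries, and naive AKR stood apart from the other 3 groups. The log2 difference between strains was 5.34 in naive libraries (SE 0.19) and 3.88 in OFL libraries (SE 0.34). No B6N library reached the minimum of the expression filter, 0.444 CPM in the naive and 0.704 CPM in the OFL set. The copy thus passed only through AKR and had to be higher there, so these differences are a description, with no test. In AKR the copy fell by 1.65 on the log2 scale from naive to OFL libraries (SE 0.14, edgeR adjusted p = 2.9e-11). Of all genes tested, 38.8% were called lower in that contrast.

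Counts of the copy amounted to 6.28% of those of Glo1 in naive AKR, 0.287% in naive B6N, 2.12% in AKR after OFL and 0.261% in B6N after OFL. Reads of sequences this alike cannot be assigned to one or the other with certainty, so the values of both are uncertain, by an amount that was not measured. With the copy's counts added to those of Glo1, an alternative chosen after seeing the data, the strain difference of Glo1 was 1.004 in naive libraries (edgeR adjusted p = 5.6e-13) and 0.95 in OFL libraries (edgeR adjusted p = 7.8e-11). With the copy added, the OFL minus naive difference in AKR was -0.14 and passed the test (edgeR adjusted p = 0.0029), whereas in B6N it stayed at -0.10 (edgeR adjusted p = 0.053). The origin of the reads assigned to the copy was not tested.

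**Figure D2:**
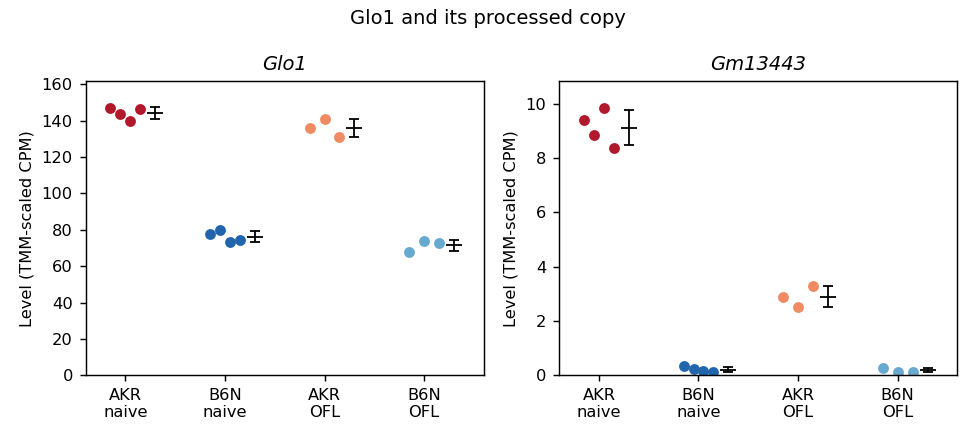
Level of Glo1 and of its processed copy Gm13443 (TMM-scaled CPM, axes starting at 0) in the 14 libraries, with the group mean and standard deviation beside the points. The copy is at 8.35 to 9.84 CPM in naive AKR, 2.51 to 3.28 CPM in AKR after OFL and at most 0.354 CPM in any B6N library.

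Dnah8 showed the larger ratio of the head-to-head pair, from a low level. It was at 6.30, 6.19, 6.99 and 5.80 CPM in the naive AKR libraries and at 0.786, 0.855, 0.741 and 0.429 CPM in the naive B6N libraries, where it rested on 10 to 20 counts. After OFL it was at 12.8, 12.1 and 13.1 CPM in AKR and at 1.44, 1.33 and 2.55 CPM in B6N. No AKR library overlapped a B6N library, and within each strain no OFL library overlapped a naive one. The strain difference was 3.16 in naive libraries (SE 0.16, edgeR adjusted p = 7.7e-11), an 8.92-fold higher level in AKR, and 2.83 in OFL libraries (SE 0.17, edgeR adjusted p = 3.6e-10), a 7.10-fold higher level. Only 3 of 4 naive B6N libraries reached the minimum of the expression filter, so Dnah8 passed it there only with AKR libraries, which limits the naive test. In the OFL set 3 of 3 B6N libraries reached it.

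From naive to OFL libraries Dnah8 rose by 1.01 in AKR (SE 0.12, edgeR adjusted p = 1.7e-08) and by 1.32 in B6N (SE 0.26, edgeR adjusted p = 4.3e-05), which is about a doubling or more in both strains. In these contrasts 78.7% of all genes tested were called in AKR (39.8% higher, 38.8% lower) and 78.4% in B6N (40.0% higher, 38.4% lower), so a call is the common outcome. OFL libraries lay above all naive libraries for 38.9% of genes in AKR and 39.2% in B6N. The 2 sets were deposited as separate tables, and the condition cannot be told apart from the library set. The interaction of Dnah8 was -0.32 (SE 0.28, 95% interval -0.89 to 0.25, edgeR adjusted p = 0.62). It turned to 0.03 without B6N OFL replicate 3, the library with 36 counts against 21 and 19 in the others of its group. The lncRNA 1700097N02Rik, which overlaps Dnah8, had at most 6 counts in any library.

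Heavy chains of axonemal dynein differed between strains in both directions. Of 15 listed, Dnah8 included, 13 were tested in naive libraries, with 3 higher and 5 lower in AKR (61.5% called against 37.8% of all genes), and 12 in OFL libraries, with 3 higher and 4 lower (58.3% called against 16.4%). Their median log2 difference was -0.10 in naive and -0.19 in OFL libraries, against 0.01 and 0.00 over all genes tested. Dnah6 was higher in AKR by 2.14 in naive (SE 0.16, edgeR adjusted p = 1.2e-08) and by 3.23 in OFL libraries (SE 0.15, edgeR adjusted p = 3.5e-12). Dnah2 was lower, by -1.14 (SE 0.13, edgeR adjusted p = 1.4e-06) and -1.06 (SE 0.19, edgeR adjusted p = 4.9e-04). Dnah7a was higher by 0.98 and 2.21, while Dnah7b (-1.01 after OFL) and Dnah7c (-0.51 and -1.29) were lower; these are close copies of one another, so how reads were split among them is uncertain.

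Markers of ependymal cells and motile cilia are listed because Dnah8 is a cilium gene. Of 20 listed, 11 were tested in naive libraries (27.3% called against 37.8%), of which Rsph1 was higher in AKR and Foxj1 (-1.13) and Tekt1 (-0.88) were lower. In OFL libraries 9 were tested and Rsph1 alone was called (11.1% against 16.4%). The summed level of the 20 was 46.7 to 51.5 CPM in naive AKR and 49.3 to 53.2 CPM in naive B6N, and 50.3 to 52.7 CPM in AKR and 51.6 to 55.6 CPM in B6N after OFL. Among them, 5 ependymal markers summed to 3.20 to 4.71 CPM in naive AKR, below the 4.85 to 7.31 CPM of naive B6N. After OFL the sums of these 5 overlapped (3.48 to 4.22 CPM in AKR against 3.85 to 5.42 CPM in B6N). The part of this in the Dnah8 difference was not tested. Tmem212, a defining ependymal marker, was at 0 in all AKR libraries and at a mean of 0.0494 CPM in naive B6N, and Ccdc153 had a mean of 0.0130 CPM in naive AKR against 0.185 CPM in naive B6N. Both genes rest on few or no reads. Rarres2, of the same list and at a higher level, went the other way. Its mean was 1.70 CPM in AKR against 1.48 CPM in B6N in naive libraries, and 2.36 against 1.93 CPM after OFL.

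Glp1r was near the limit of detection. Its counts were 14, 30, 29 and 17 in the naive AKR libraries and 8, 3, 3 and 7 in the naive B6N libraries. After OFL they were 10, 13 and 22 in AKR and 0, 3 and 3 in B6N. AKR and B6N did not overlap in either set, with 0.689 to 1.502 CPM against 0.135 to 0.315 CPM in naive libraries and 0.741 to 1.60 CPM against 0 to 0.212 CPM in OFL libraries. The fitted log2 difference was 2.16 in naive libraries (SE 0.35) and 2.87 in OFL libraries (SE 0.56). Glp1r passed the expression filter only through AKR, since 0 of 4 and 0 of 3 B6N libraries reached the minimum, so a tested Glp1r had to be higher there. These differences are therefore given as a description, with no test.

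Between naive and OFL libraries Glp1r was not called in either strain, with differences of 0.05 in AKR (95% interval -0.63 to 0.73) and -0.69 in B6N (95% interval -2.22 to 0.83). At this depth both intervals include a 1.5-fold change in either direction. A list of 12 genes around glucagon-like peptide 1 and glucagon held ligands, receptors, Glp1r itself, the protease gene Dpp4 and the G protein gene Gnas. Of these, 9 were tested in naive libraries, with 3 higher and 2 lower in AKR (55.6% called against 37.8% of all genes), and 7 in OFL libraries, with 1 higher, which was Glp1r, and 1 lower (28.6% called against 16.4%). Glp1r, which passed the filter only through AKR, is counted among the higher genes of both sets and adds to both shares. The medians of the list, Glp1r included, were 0.16 and -0.05. Glp2r, the receptor of glucagon-like peptide 2, was lower in AKR by -2.10 in naive (SE 0.12, edgeR adjusted p = 3.5e-10) and -2.26 in OFL libraries (SE 0.25, edgeR adjusted p = 1.3e-06). Vipr2, a receptor of vasoactive intestinal peptide, was higher by 0.89 in naive libraries (SE 0.23, edgeR adjusted p = 0.0053), and so was Dpp4, the protease that cleaves glucagon-like peptide 1, by 0.45 (SE 0.12, edgeR adjusted p = 0.0062).

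Btbd9 differed between strains after OFL and not by the test in naive libraries. Its naive levels were 127, 137, 125 and 139.9 CPM in AKR and 129.6, 113, 126 and 123 CPM in B6N, and the groups overlapped. After OFL they were 145, 136 and 140.3 CPM in AKR and 100.1, 111 and 108 CPM in B6N, with no overlap. The strain difference was 0.11 in naive libraries (SE 0.05, 95% interval 0.01 to 0.20, edgeR adjusted p = 0.082) and 0.39 in OFL libraries (SE 0.05, 95% interval 0.28 to 0.50, edgeR adjusted p = 1.5e-05), a 1.31-fold higher level in AKR. The naive difference passed the threshold in 4 of 16 alternative fits, among them the fit with library totals only (0.13, edgeR adjusted p = 0.027) and the fit without naive AKR replicate 3 (0.13, edgeR adjusted p = 0.045).

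The interaction itself was called for Btbd9, at 0.30 (SE 0.07, 95% interval 0.15 to 0.44, edgeR adjusted p = 0.013), against 5.15% of all genes tested (3.61% higher). From naive to OFL libraries Btbd9 fell by 0.21 in B6N (SE 0.05, edgeR adjusted p = 6.1e-04), while in AKR the difference was 0.09 (SE 0.05, edgeR adjusted p = 0.12). In B6N 38.4% of all genes tested were called lower from naive to OFL libraries. A difference between the sets that is shared by both strains cancels in the interaction. One that acts unequally on the strains does not, and it cannot be told apart from the condition. The adjusted p of the interaction ran from 0.0011 to 0.0495 over 21 alternative fits, all of them past the threshold. None of the other 4 genes had a called interaction.

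**Figure D3:**
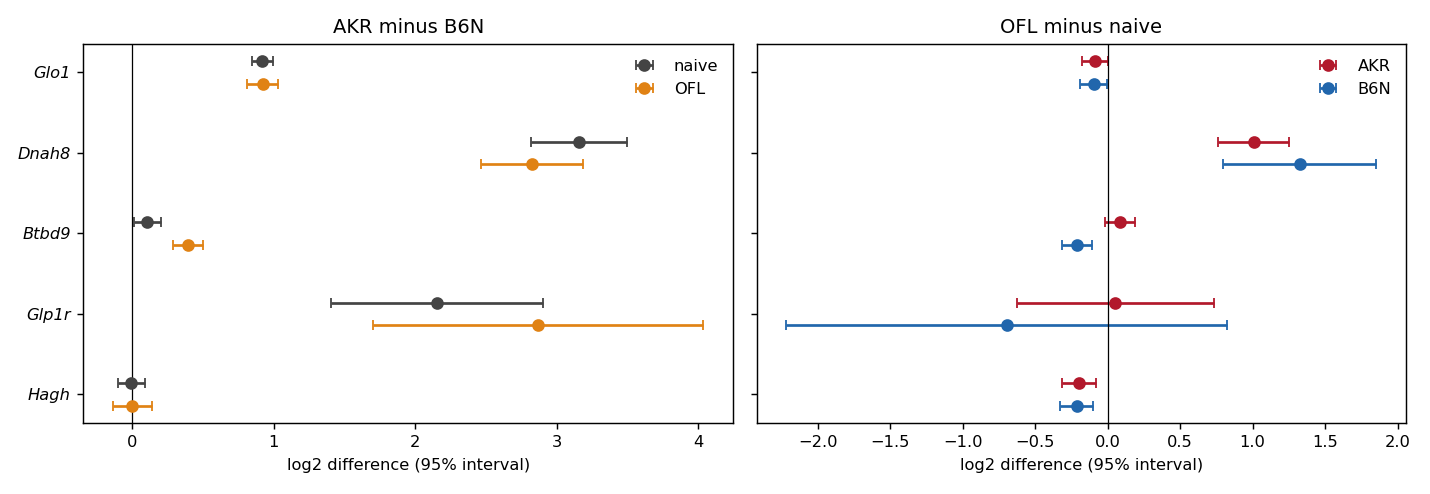
Log2 differences with 95% intervals for the 5 genes. Left, AKR minus B6N in naive and in OFL libraries; right, OFL minus naive in each strain. Glo1 has the same strain difference in both sets (0.92), the intervals of Btbd9 do not meet between the sets, and those of Hagh span 0 on the left and lie below 0 on the right.

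Hagh did not follow Glo1. Its naive levels were 58.7, 65.3, 60.5 and 61.3 CPM in AKR and 63.6, 64.1, 57.1 and 62.2 CPM in B6N. After OFL they were 55.7, 56.7 and 48.5 CPM in AKR and 51.9, 54.1 and 54.0 CPM in B6N. Strains overlapped in both sets. The strain difference was -0.01 in naive libraries (95% interval -0.10 to 0.09, edgeR adjusted p = 0.93) and -0.00 in OFL libraries (95% interval -0.14 to 0.14, edgeR adjusted p = 0.998), and both intervals lie far below the Glo1 value of 0.92. From naive to OFL libraries Hagh fell by 0.20 in AKR (SE 0.06, edgeR adjusted p = 0.0026) and by 0.21 in B6N (SE 0.06, edgeR adjusted p = 0.0013), with an interaction of 0.02 (95% interval -0.15 to 0.18, edgeR adjusted p = 0.97). Of all genes tested, 38.8% were called lower in AKR and 38.4% in B6N from naive to OFL libraries. Condition and library set cannot be told apart for these falls. Within 0.1 Mb of Hagh, Nubp2 was higher in AKR in both sets (0.24 and 0.32) and Spsb3 lower in both (-0.41 and -0.52), while Eme2 (-0.86, edgeR adjusted p = 1.7e-05) and Mapk8ip3 (-0.10, edgeR adjusted p = 0.022) were lower in naive libraries and not called after OFL (-0.01 for both). Fahd1, its nearest tested neighbour, was not called (-0.08 and -0.20).

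The wider set of genes for methylglyoxal and its breakdown held changes in both directions between strains. Of 31 listed, 29 were tested in naive libraries, with 8 higher and 6 lower in AKR (48.3% called against 37.8% of all genes), and 27 in OFL libraries, with 3 higher and 3 lower (22.2% called against 16.4%). Their median log2 difference was 0.01 in naive and -0.03 in OFL libraries, against 0.01 and 0.00 over all genes. Glo1 had the largest positive difference of the list in both sets. The largest negative one was that of Aldh7a1, an aldehyde dehydrogenase of lysine breakdown, at -0.99 in naive (SE 0.04, edgeR adjusted p = 1.3e-11) and -0.83 in OFL libraries (SE 0.06, edgeR adjusted p = 5.8e-09).

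By role, Ldhd, which oxidises the D-lactate that the glyoxalases yield, was higher in AKR by 0.42 in naive (SE 0.06, edgeR adjusted p = 2.5e-05) and by 0.30 in OFL libraries (SE 0.10, edgeR adjusted p = 0.036). Haghl, a gene related in sequence to Hagh, was higher by 0.34 in naive libraries (SE 0.06, edgeR adjusted p = 2.1e-04), and in OFL libraries its difference of 0.11 was not called. Glod4, a glyoxalase-domain gene, was lower by -0.12 in naive (SE 0.04, edgeR adjusted p = 0.037) and -0.38 in OFL libraries (SE 0.06, edgeR adjusted p = 1.4e-04). Park7, which encodes the protein DJ-1, was lower by -0.17 (SE 0.05, edgeR adjusted p = 0.012) and -0.25 (SE 0.06, edgeR adjusted p = 0.0051). Of the genes that make or recycle glutathione, the cofactor of Glo1, Gsr was higher in naive libraries (0.34, edgeR adjusted p = 3.8e-04), and Gclc, Gclm and Gss were not called in either set. The interaction was called for 1 of 29 genes, Glod4 (-0.25, edgeR adjusted p = 0.032), and that call was lost in 13 of 21 alternative fits.

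**Figure D4:**
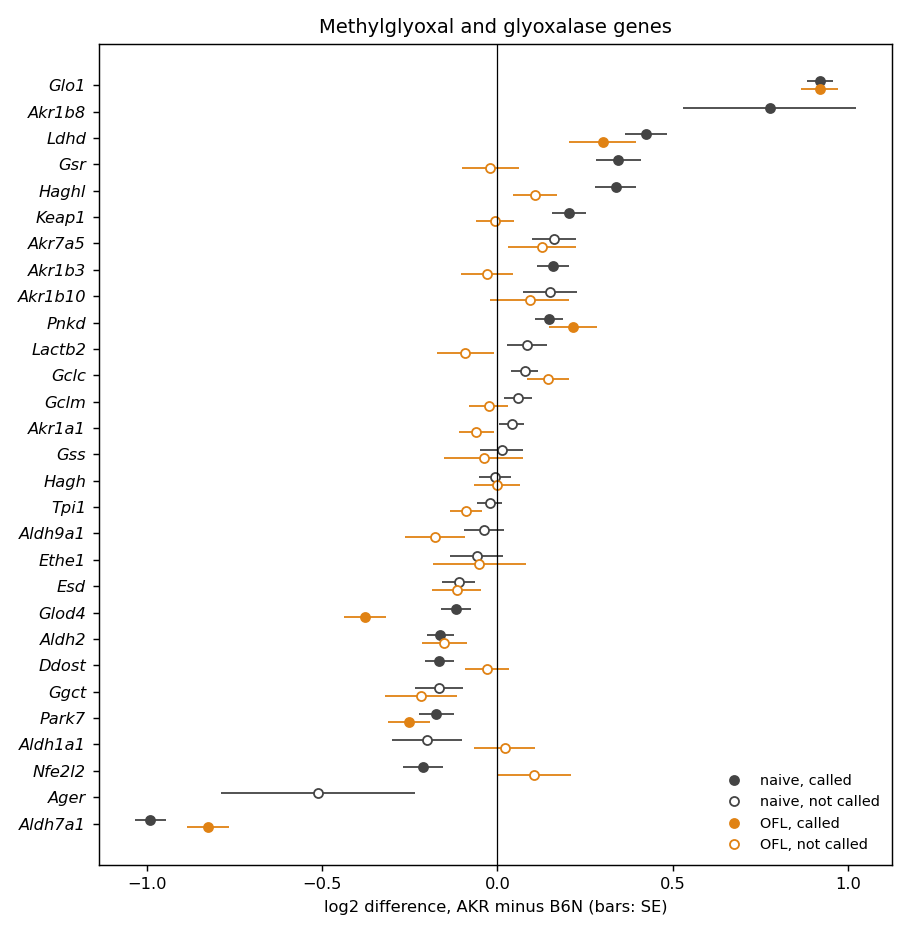
Log2 difference between AKR and B6N for each tested gene of methylglyoxal and glyoxalase metabolism, in naive and OFL libraries, with SE bars. Filled points passed the test and open points did not. Glo1 is at the top and Aldh7a1 at the bottom in both sets, and Hagh lies at 0.

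Genes around Glo1 on chromosome 17 differed between strains in both directions. Within 2 Mb of its start 96 genes are annotated. In naive libraries 54 of them were tested, with 21 higher and 11 lower in AKR (59.3% called against 37.8% of all genes). In OFL libraries 49 were tested, with 11 higher and 3 lower (28.6% called against 16.4%). With Glo1, Dnah8, Btbd9 and Glp1r left out, 18 of 50 were higher and 11 lower in naive libraries, with a median of 0.03, and 7 of 45 were higher and 3 lower in OFL libraries, with a median of 0.07. Their medians are small beside the differences of Glo1, Dnah8 and Glp1r.

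Within 0.5 Mb of the Glo1 start 5 of 6 tested genes were higher in AKR in naive libraries, where 18.3% of all genes were higher, and none was lower. With Glo1, Dnah8, Btbd9 and Glp1r left out, 2 of 2 were higher. Beside Glo1, Dnah8 and Glp1r these were Umodl1 (0.93, SE 0.25, edgeR adjusted p = 0.0071), 328 kb away, and Abcg1, a sterol transporter (0.17, SE 0.05, edgeR adjusted p = 0.0084), 431 kb away. In OFL libraries 4 of 5 were higher, against 7.5% of all genes. These were Glo1, Dnah8, Btbd9 and Glp1r, of which Glp1r passed the filter only through AKR, and Abcg1 was not called (0.08). Glp1r did so in naive libraries too, where Dnah8 also needed AKR libraries to pass. The naive B6N mean of Umodl1, 0.503 CPM (SD 0.123), exceeded the filter's minimum of 0.444 CPM by less than its SD. The filter thus limits the Umodl1 test, and with it the 2 of 2 above. The next tested gene beyond Btbd9 was Zfand3, 622 kb from the Glo1 start, which was lower in naive AKR (-0.18, edgeR adjusted p = 0.0026) and not called after OFL (0.07). Abcg1 and Zfand3 are named for their position.

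Farther out, the larger differences in naive libraries, among genes named by more than a predicted-gene number, were those of Rsph1, a radial spoke gene of motile cilia (1.16, edgeR adjusted p = 3.2e-05), Pi16 (1.34, edgeR adjusted p = 1.4e-04), Pnpla1 (1.06, edgeR adjusted p = 0.0029), the lincRNA gene Trp53cor1 (0.83), the cell cycle inhibitor gene Cdkn1a (-1.10, edgeR adjusted p = 7.6e-08) and the adhesion gene Mdga1 (-0.88, edgeR adjusted p = 2.7e-06). The predicted genes left out of that order include Gm16758 (-1.43, edgeR adjusted p = 6.4e-05) and Gm17276 (-1.18, edgeR adjusted p = 1.6e-04). By the same order they were in OFL libraries those of Rsph1 (1.30, edgeR adjusted p = 0.0027), Slc26a8 (0.82, edgeR adjusted p = 6.3e-04), Pim1 (-0.50, edgeR adjusted p = 0.044), Notch3 (0.49, edgeR adjusted p = 0.0032), Wiz (0.46, edgeR adjusted p = 8.0e-04) and Ppil1 (-0.38, edgeR adjusted p = 0.036), with the predicted gene Gm26549 (1.17, edgeR adjusted p = 1.3e-04) left out. The call was lost in 3 of 15 alternative fits for Trp53cor1, 6 of 14 for Pim1 and 5 of 14 for Ppil1. The naive B6N mean of Trp53cor1, 0.392 CPM, lay below the filter's minimum of 0.444 CPM. Trp53cor1 thus passed the filter only with AKR libraries, and its difference is given as a description. For Pnpla1 the naive B6N mean, 0.513 CPM (SD 0.148), exceeded that minimum by less than its SD, which limits its test. The interaction was called for 5 of 55 tested genes of the window, all positive: Btbd9, Cdkn1a (0.97), Mdga1 (0.84), Zfand3 (0.26) and Wiz (0.36). Btbd9 was thus one of 5, and the 9.09% called compares with 5.15% over all genes.

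**Figure D5:**
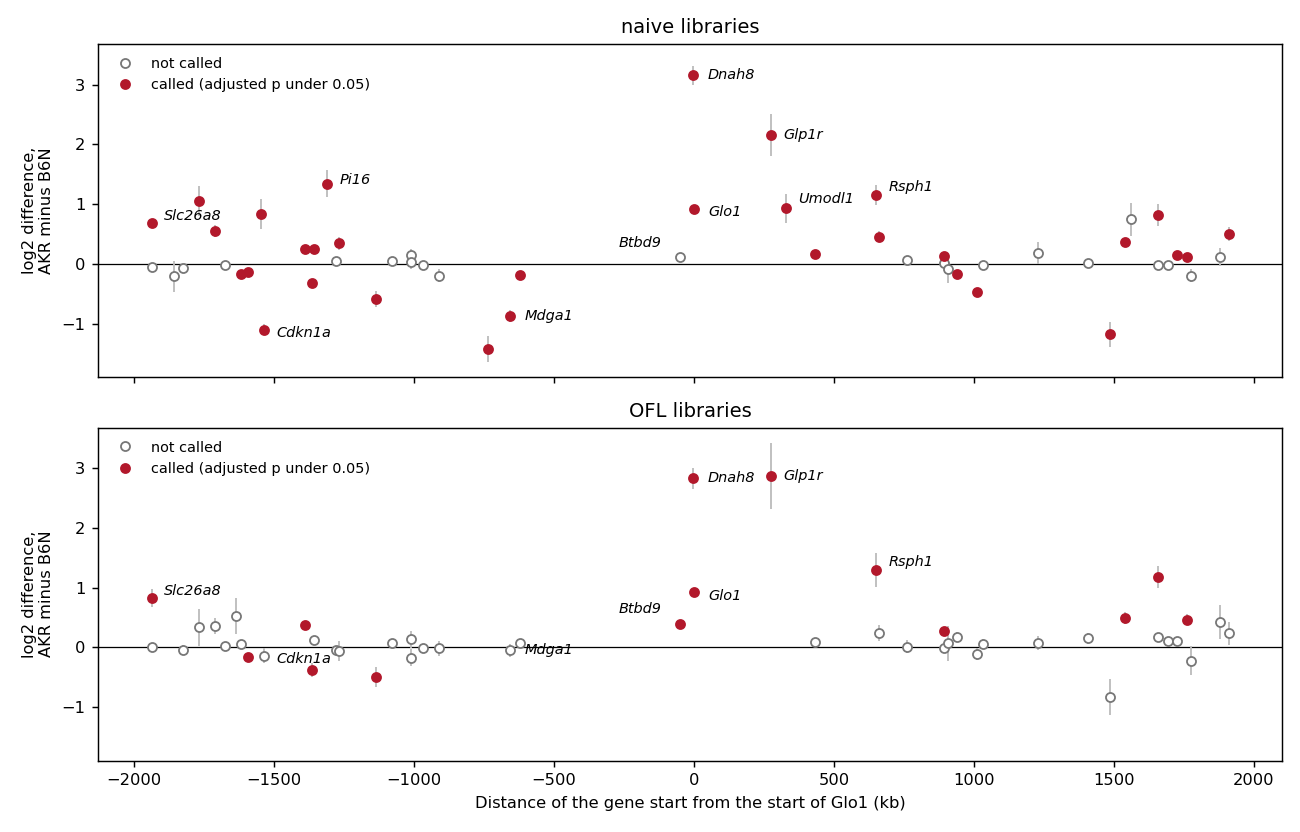
Log2 difference between AKR and B6N (SE bars) for tested genes within 2 Mb of Glo1, by distance of the gene start from that of Glo1, in naive (top) and OFL libraries (bottom). Filled points passed the test. Dnah8 and Glp1r have the largest differences in both sets, and fewer of the outer genes are called after OFL.

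Across the 14 libraries, after the mean of each library set was subtracted, the level of Dnah8 had a Pearson r of 0.981 with that of Glo1, Btbd9 of 0.768 and Hagh of 0.0434, on log2 CPM. These correlations are descriptions over libraries that share strain and set. Among the 12265 genes averaging 5 CPM or more, the 5 most like Glo1 by this measure were Scg5 (0.995), Mars (0.993), Rpsa-ps10 (0.993), Gm15411 (0.993) and Cfap54 (0.992). None of the 5 lies on chromosome 17. Scg5, a secretory granule chaperone gene, was higher in AKR by 1.06 in naive and 1.03 in OFL libraries, close to the difference of Glo1, while the others ran from 0.46 for Mars, a tRNA ligase gene, to 6.67 for the pseudogene Rpsa-ps10. None of these 5 was among the first 5 by Spearman rank correlation.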

How the data were processed

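RNA of anterior cingulate cortex was sequenced from 14 libraries in 4 groups, with TruSeq libraries from total RNA per the labels. Alignment and counting tools listed in the submitters' processing notes are TopHat2 2.1.1 and HTSeq, beside cutadapt 2.7, CASAVA and edgeR, with build GRCm38; the annotation release is not given in the sources used here. The authors deposited raw counts per Ensembl gene in 1 table for naive and 1 for OFL libraries, and these were tested. They also deposited CPM values for each sample. Multiplying the deposited CPM by the scaled library size (factors 0.9877 to 1.0175) returned integers (tolerance 0.1 read) in 100% of cases, and 0 genes departed from the raw counts; the design took these sample tables for counts.

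Names and positions came from GENCODE vM21, which named 53274 of the 53465 identifiers. Tests used edgeR 4.0.16 (R 4.3.3, limma 3.58.1) with filterByExpr by group, TMM, the two-sided quasi-likelihood F-test and Benjamini-Hochberg adjustment over all genes tested. Strain differences were fitted within each set, and changes and interactions in 1 fit of 14 libraries. The common biological coefficient of variation was 0.0446, 0.0456 and 0.0450 in these fits. Alternatives were DESeq2 1.42.0, other scalings and filters, a replicate block and leaving out libraries. Another used the reads recovered from the CPM values. As these equal the raw counts, it repeats the main fit, and the tallies of alternative fits include it. The script was tested on simulated data. Copies were sought as shared 31-base stretches of annotated transcripts, and Gm13443 was aligned locally to Glo1.

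The genes and lists were chosen with earlier results of these data known. The text names the 5 genes, up to 4 called members of each list with the smallest p, up to 10 called neighbours by size, predicted-gene numbers and clone names left out, and the 5 genes most like Glo1; other list members, Gm13443, other predicted genes and the neighbours of Hagh were chosen after their values were seen.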

Additional observations from a re-analysis of the deposited data

Results flagged for a closer look

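Btbd9 was the 1 result picked out, because the strain difference was not the same in the 2 library sets. The interaction log2 value was 0.2958 (edgeR adjusted p = 0.013), with all 3 AKR libraries above all 3 B6N libraries after OFL and overlapping groups in naive libraries. It stayed between 0.25 and 0.34 over 21 alternative fits. Condition and library set cannot be told apart for the change within a strain. The same holds for the interaction where a set difference is unequal between the strains.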

How the results depend on the processing

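The strain differences of Glo1 and Dnah8 kept their direction and passed the threshold in every alternative that tested them (15 to 17 for Glo1, 14 to 16 for Dnah8 in OFL and naive libraries), from 0.88 to 1.004 for Glo1 and 2.66 to 3.26 for Dnah8. Values for Glp1r, whose direction the filter fixes, ran from 1.96 to 3.27. A filter of 1 CPM left Glp1r untested in the strain fits. Values near 0 or near the threshold moved, and the cause was not tested. For Btbd9 in naive libraries the test was passed with upper-quartile factors (0.12), library totals only (0.13) and no count filter (0.11), and for its change in AKR with DESeq2 (0.13) and upper-quartile factors (0.14). The Hagh strain difference turned positive with upper-quartile factors (0.0044 naive, 0.0070 OFL), library totals only (0.016 and 0.0052) and, in OFL libraries, all 14 libraries in 1 fit (0.0080). The change of Glo1 in AKR passed with library totals only (-0.10), no count filter (-0.12) and the copy added (-0.14), and in B6N with no count filter (-0.13); it also passed with single libraries left out, in AKR without AKR naive replicate 3, AKR OFL replicate 2 or B6N OFL replicate 1, and in B6N without AKR naive replicate 3, B6N naive replicate 3 or 4, AKR OFL replicate 2 or B6N OFL replicate 2. With library totals only the interaction of Glo1 was -0.016 and that of Hagh -0.011; with the copy added that of Glo1 was -0.048. The methylglyoxal list's 1 called interaction became 0 with DESeq2 and 2 with library totals only.

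Leaving out each library in turn gave ranges of 0.065 to 0.13 for the naive difference of Btbd9 and 0.054 to 0.12 for its change in AKR, -0.040 to 0.014 (naive) and -0.046 to 0.066 (OFL) for the strain difference of Hagh and -0.027 to 0.084 for its interaction. For Glo1 the ranges were -0.12 to -0.062 for the change in AKR, -0.13 to -0.063 in B6N and -0.026 to 0.038 for the interaction. They were -0.34 to 0.25 for the change of Glp1r in AKR, -0.48 to 0.033 for the interaction of Dnah8 and 0 to 3 for the list's called interactions. Over all genes, 2943 were called between strains after OFL, and 1934 to 3514 with a library left out, the lowest without B6N OFL replicate 2.

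Deviations of same-numbered libraries from their group means correlated at -0.12 to 0.13. Differently numbered libraries were not compared, so whether replicate numbers pair the libraries was not tested. With the replicate number as a block the strain difference of Glo1 was 0.92 in both sets, 6229 genes were called in naive libraries against 6668 without it and 3021 against 2943 in OFL libraries, and the change of Glp1r in AKR was -0.044. With 10 to 36 counts for Dnah8 and 0 to 8 for Glp1r in B6N libraries, depth limits the precision of both ratios.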

Other observations

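Between strains, genes of iron handling and of restless legs syndrome loci, listed around Btbd9, were called at a share near or below that of all genes. Of 14 listed, 13 were tested, with 4 higher and 0 lower in AKR in naive libraries (30.8% called against 37.8% of all genes): Map2k5 (0.31), Tox3 (0.35), the iron exporter gene Slc40a1 (0.36) and Aco1 (0.14, a call lost in 5 of 16 alternative fits). In OFL libraries (15.4% called against 16.4%) 1 was higher, Btbd9 itself, and 1 lower, the transferrin receptor gene Tfrc (-0.17, edgeR adjusted p = 0.013). The interaction was called for the same pair in opposite directions, at 0.30 for Btbd9 and -0.28 for Tfrc (edgeR adjusted p = 0.014). That was 15.4% of the 13 tested, against 5.15% of all genes. The Tfrc strain call after OFL was lost in 2 of 14 alternative fits, and its interaction in 1 of 21.

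Glycolysis, the source of methylglyoxal, was lower in OFL than in naive libraries for 15 of 16 listed genes in both strains, with medians of -0.44 in AKR and -0.41 in B6N. Over all genes the median was -0.01 in AKR and -0.00 in B6N, and 38.8% and 38.4% were called lower. Summed markers of cortical glutamatergic neurons were also lower, at 2059 to 2358 CPM in OFL against 4481 to 5032 CPM in naive libraries, as were those of inhibitory neurons (499 to 592 against 746 to 869 CPM); their part in this was not tested. Eno1 fell by 1.07 in AKR and by 1.04 in B6N, and Gapdh fell by 0.87 and 0.78. Between strains Eno1 was lower in AKR, at -0.62 in naive and -0.66 in OFL libraries (edgeR adjusted p = 3.6e-10 and 2.7e-09). None of the 16 had a called interaction by edgeR. Whether the lower values follow the condition or the library set cannot be told apart.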
